A study of Mus musculus with 8 samples.

Results

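Chemokine receptors of eosinophil homing were examined as a group of 9 genes, Ccr1, Ccr2, Ccr3, Ccr7, Ccr9, Cxcr2, Cxcr4, Cx3cr1 and Ccrl2. They were taken from the expression table by exact gene symbol, and each symbol matched 1 of its 38392 genes. RNA had been sequenced from eosinophils, which are granulocytes made in the bone marrow that also reside in the small intestine. There were 4 libraries from the bone marrow (BM) and 4 from the small intestine (SI), and the comparison asked how the cells differ between the place where they form and a tissue where they settle.

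All libraries came from wildtype mice of strain C57/BL6, which the study gives as females, with no further treatment of the animals. Ages of the sequenced mice were not given in the labels. BM eosinophils were sorted as CD11b+, Ly6G-, Ly6C-, SiglecF+ cells of high side scatter, and SI eosinophils as CD11b+, MHC-II-, SiglecF+ cells of high side scatter. Intestinal tissue was digested with enzymes and its cells were enriched on beads against CD11b, whereas marrow was flushed out and sorted directly, so tissue and handling cannot be told apart. Libraries are named by their column in the table (BM_1, BM_3, BM_4, BM_5, SI_6, SI_7, SI_10 and SI_11).

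Chemokine receptors are G protein-coupled receptors on the cell surface that sense gradients of small secreted proteins, the chemokines. Ligand binding activates inhibitory G proteins, which drive the cytoskeleton and the integrins that let a leukocyte crawl and stop. Ccr3, the receptor of the eotaxins, is the classical receptor for eosinophil entry into the gut, Cxcr4 and its ligand Cxcl12 hold leukocytes in the bone marrow, and Ccr9 with its ligand Ccl25 guides lymphocytes into the small intestine. Ccrl2 is an atypical receptor that binds the chemoattractant chemerin without classical signalling.

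Of the 9 receptors, 6 were higher in SI than in BM libraries, 0 were lower and 3 did not pass the test, which was limma on the deposited log2 values with Benjamini-Hochberg adjustment over all 38392 genes. Of all genes, 34.9% passed in either direction, 22.0% higher in SI and 12.9% lower. The largest rises were those of Ccr3, Ccrl2 and Ccr1, followed by Ccr9, Cxcr4 and Cx3cr1. Ccr2, Cxcr2 and Ccr7 did not pass. When each library was centred on its median gene, 4 receptors were called higher and 2 lower. The median difference of the 9 receptors was 1.77 on the deposited log2 scale, beside 0.37 over all genes. For 7 of the 9 the BM and SI values did not overlap, as was the case for 34.3% of all genes. Of the receptors, 8 had a mean of at least 10 normalised reads over all libraries, and among all genes at that level 35.3% rose and 28.1% fell. A normalised read count is the whole reads of a gene, recovered from the deposited values, divided by the size factor of the library.

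**Figure D1:**
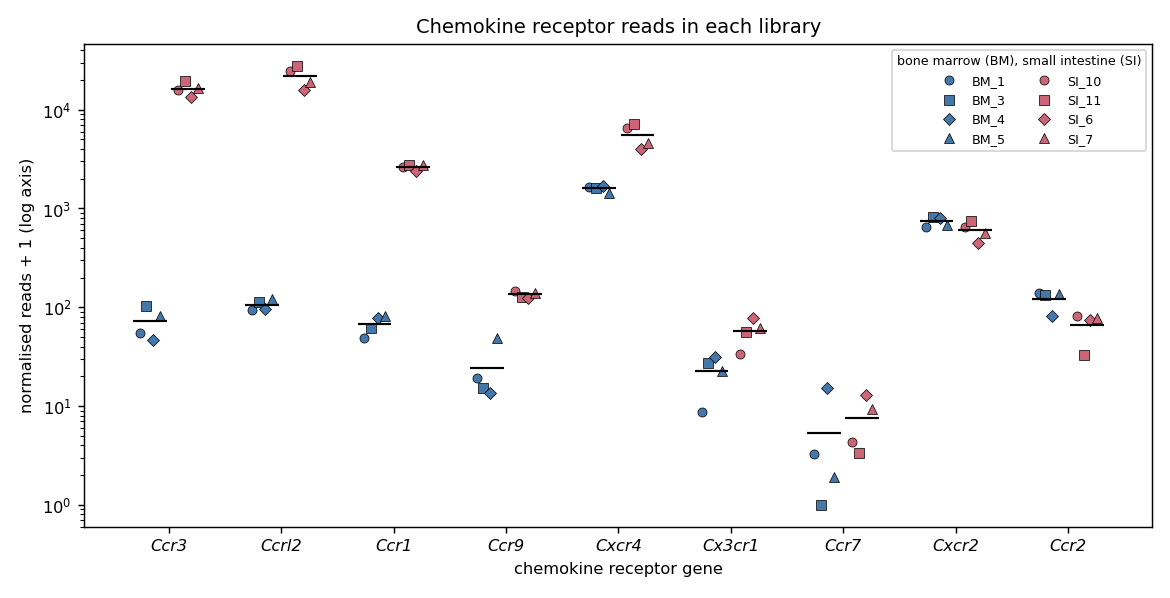
Normalised reads plus 1 (log axis) of the 9 chemokine receptors in each of the 4 BM libraries (blue) and 4 SI libraries (red), with a symbol for each library and a bar at the mean. Ccr3, Ccrl2 and Ccr1 lay at or below 119 normalised reads in every BM library and at or above 2407 in every SI library, whereas the values of Cxcr2 and Ccr7 overlapped.

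The cells behind the libraries bear on every value. Libraries held 11508002 to 21289164 reads assigned to genes. BM libraries carried the eosinophil granule genes Prg2, at 1831 ± 396 (SD, n = 4) normalised reads, and Epx, at 350 ± 40.2, but Il5ra, the interleukin-5 receptor chain, was at 11.04 ± 5.31. SI libraries had Siglecf at 3076 ± 516 and Il5ra at 1107 ± 222, with Epx at 20.6 ± 9.06. Of 11 eosinophil markers, 5 were higher and 5 lower in SI, and their sum was 2709 to 4746 normalised reads in BM and 33562 to 46375 in SI, led by Alox15 and Ccr3 itself. In BM, the 10 neutrophil precursor markers, led by Mpo and Elane, summed to 370453 to 463167 normalised reads, or 2.92 to 3.34% of all reads, beside 522 to 623 in SI, and all 10 were lower in SI. Ly6c2, which encodes an antigen that the BM gate had left out, was at 8268 ± 1228 in BM and at 16.7 ± 3.79 in SI. Epithelial markers, led by Krt19 and Lgals4, summed to 186 to 198 in BM and 3194 to 21284 in SI, highest in SI_6, and all 8 were higher in SI. Dendritic cell markers, led by Itgax and Cd74, summed to 488 to 646 in BM and 15257 to 23387 in SI, with 7 of 9 higher. Macrophage markers, led by Adgre1 and Apoe, summed to 666 to 926 and 14234 to 17159, also with 7 of 9 higher. Most of these SI sums came from a single gene each, Itgax at 14221 ± 1866 and Adgre1 at 13672 ± 1373 normalised reads. Adgre1 and Itgax are also known from intestinal eosinophils. None of the markers was at 0 in every library. Fewer cells of a type and less RNA per cell cannot be told apart in such samples, and the part of other cells in the receptor differences was not tested.

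Some of the receptors are neighbours in the genome. In the mouse build GRCm38, 6 of the 9 lie on chromosome 9, and Ccr9 (start 123678439, end 123784330), Ccr1 (start 123962124, end 123968692), Ccr3 (start 124021972, end 124031689) and Ccr2 (start 124101950, end 124113557) stand in a stretch of 435 kb with Cxcr6, Xcr1 and Ccr1l1. Cx3cr1 (start 119901616, end 120069879) and Ccrl2 (start 111054486, end 111057519) lie elsewhere on the chromosome. Cxcr2 (start 74153989, end 74161246) and Cxcr4 (start 128588199, end 128592293) are on chromosome 1, and Ccr7 (start 99144196, end 99155077) is on chromosome 11.

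The 250 bases before the transcription start of Ccr1 and Ccr3 are shown because these neighbours moved in the same direction. They are RefSeq sequences of build GRCm38.p6, written 5′ to 3′ on the strand of the gene. Capitals mark GATAA (the core bound by GATA factors), GCGTG (the core bound by the aryl hydrocarbon receptor) and TGANTCA (the AP-1 element), each searched on both strands. The windows are chr9:123968693-123968942 (minus strand) and chr9:124021721-124021970 (plus strand).
Ccr1: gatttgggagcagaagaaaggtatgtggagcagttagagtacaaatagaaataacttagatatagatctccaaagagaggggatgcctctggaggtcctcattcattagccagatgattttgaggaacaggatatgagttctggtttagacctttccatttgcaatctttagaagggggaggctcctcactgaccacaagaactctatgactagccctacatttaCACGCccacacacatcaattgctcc
Ccr3: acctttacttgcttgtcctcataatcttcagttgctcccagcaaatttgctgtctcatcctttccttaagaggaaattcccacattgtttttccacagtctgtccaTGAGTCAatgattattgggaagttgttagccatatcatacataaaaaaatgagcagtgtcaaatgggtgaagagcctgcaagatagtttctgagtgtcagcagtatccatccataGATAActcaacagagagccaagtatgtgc

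In the Ccr1 window the only match was GCGTG on the opposite strand, whose letters begin 25 bases before the start. The Ccr3 window held TGANTCA 144 bases and GATAA 29 bases before the start, and these matches did not overlap. The RefSeq table held windows for 8 of the 9 receptors, 10 windows in all, since Ccrl2 has 3, which overlap. At least 1 window held GATAA for 4 of these 8 receptors, GCGTG for 3 and TGANTCA for 1. By window, 5 of the 10 held GATAA, 3 GCGTG and 1 TGANTCA. The window of Ccr9, which lies in the same stretch and was also higher in SI, held none of the motifs and is not shown. Of 32851 windows of the same length, 22.6% held GATAA, 28.2% GCGTG and 6.75% TGANTCA. The motifs were chosen after the values had been seen, and a match describes the letters only.

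Ccr3 was the receptor with the largest difference. BM_1 had 54.4 normalised reads, BM_3 102, BM_4 45.9 and BM_5 80.9, whereas SI_10 had 15839, SI_11 19653, SI_6 13285 and SI_7 16628. Every SI library was far above every BM library. The mean rose from 70.9 ± 25.7 (SD, n = 4) to 16351 ± 2623, or 231-fold, and the difference on the deposited log2 scale was 7.83 ± 0.28 (SE; limma, Benjamini-Hochberg adjusted p = 7.36e-07). Ordered by mean normalised reads, Ccr3 stood at place 9441 of all genes in BM and at place 106 in SI. Siglecf, the surface marker of the sort in both tissues, gives a measure that needs no scaling between libraries. There were 0.0795 to 0.168 reads of Ccr3 for each read of Siglecf within the BM libraries and 5.02 to 5.84 within the SI libraries. Basophils also express Ccr3. Of 7 mast cell and basophil markers, 5 were lower in SI, 1, Mcpt1, was higher and 1, Fcer1a, was not called. Their sum, mostly Kit in both tissues, was 2744 to 3765 normalised reads in BM, where Mcpt8 came next, and 574 to 1864 in SI. Their part in the value of Ccr3 was not tested.

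Ccr1, a receptor of the inflammatory chemokines Ccl3 and Ccl5 that lies 53.3 kb before Ccr3, moved in the same direction. It had 48.3 normalised reads in BM_1, 60.6 in BM_3, 77.5 in BM_4 and 80.0 in BM_5. The SI libraries had 2635 in SI_10, 2775 in SI_11, 2407 in SI_6 and 2740.3 in SI_7, closer together than those of Ccr3 and again without overlap with BM. Its mean rose 39.6-fold, from 66.6 ± 14.9 to 2639 ± 166, with a difference of 5.26 ± 0.21 (limma, Benjamini-Hochberg adjusted p = 1.18e-06). Within a library there were 0.593 to 1.69 reads of Ccr3 for each read of Ccr1 in BM and 5.52 to 7.08 in SI.

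Ccr2, the receptor of monocyte chemoattractants, lies 80.0 kb beyond the start of Ccr3 and had lower values in SI. There were 137 normalised reads in BM_1, 132 in BM_3, 81.3 in BM_4 and 135 in BM_5. SI_10 had 79.9, SI_11 32.0, SI_6 73.1 and SI_7 77.7, so the lowest BM library, BM_4, stood just above the highest SI library. The means were 121 ± 26.8 and 65.7 ± 22.6, and the difference of -0.90 ± 0.33 did not pass (limma, Benjamini-Hochberg adjusted p = 0.0665). Ccr2 was called lower in 6 of 17 other settings of the analysis, among them limma voom on the recovered reads with a Benjamini-Hochberg adjusted p = 0.0285, and in none of those that left out a library. Of 7 monocyte markers, Csf1r, Cd14 and Ctss were higher in SI, Ly6c2 and F13a1 were lower and 2 were not called. Their sum, led by Ly6c2 and Csf1r, was 7815 to 10999 normalised reads in BM, mostly Ly6c2, and 1983 to 2293 in SI. Their part in the value of Ccr2 was not tested.

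Ccr9, the receptor of Ccl25, was present at low levels. BM_1 had 18.4 normalised reads, BM_3 14.3, BM_4 12.4 and BM_5 48.3, and SI_10 had 147, SI_11 127, SI_6 123 and SI_7 139. BM_5, which had reads in 30886 genes beside 19713 to 24592 in the other BM libraries, stood above these but well below the lowest SI library. The mean rose from 23.4 ± 16.8 to 134 ± 10.7, or 5.73-fold, with a difference of 2.52 ± 0.37 (limma, Benjamini-Hochberg adjusted p = 0.000831). Of the exonic bases of Ccr9 in the annotation, 21.5% overlap other annotated genes, 2 of them on the opposite strand, and reads in those bases cannot be assigned to a gene without strand. Of 8 T cell markers, Cd4, Cd8a and Cd3e were higher in SI and 5 were not called. Their sum, led by Cd4 and Lck, was 50.7 to 89.2 in BM and 169 to 240 in SI, of which Cd4, which other leukocytes also express, made up 16.0 ± 7.11 and 126 ± 16.3. Their part in the value of Ccr9 was not tested.

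Other receptors of the same stretch were compared as neighbours. Of the 7 listed chemokine receptors in the 435 kb, 6 were higher in SI, 0 were lower and Ccr2 was not called. Of the 5 other genes there, 2 were higher. Over all genes 22.0% were higher and 12.9% lower, and at a mean of at least 10 normalised reads 35.3% and 28.1%. Ccr1l1, a gene next to Ccr1, had 0, 8, 0 and 1 reads in BM_1, BM_3, BM_4 and BM_5, and 272 to 364 reads in each SI library. Its difference was 6.90 ± 0.47 (limma, Benjamini-Hochberg adjusted p = 1.36e-05). Cxcr6 went from 34.0 ± 3.88 to 206 ± 32.3, and Xcr1, a marker of a dendritic cell subset, from 1.59 ± 2.08 to 10.7 ± 6.67, with values that overlapped between the tissues. No stretch of 75 bases of the transcripts of Ccr1, Ccr3 or Ccr1l1 occurred in another gene.

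**Figure D2:**
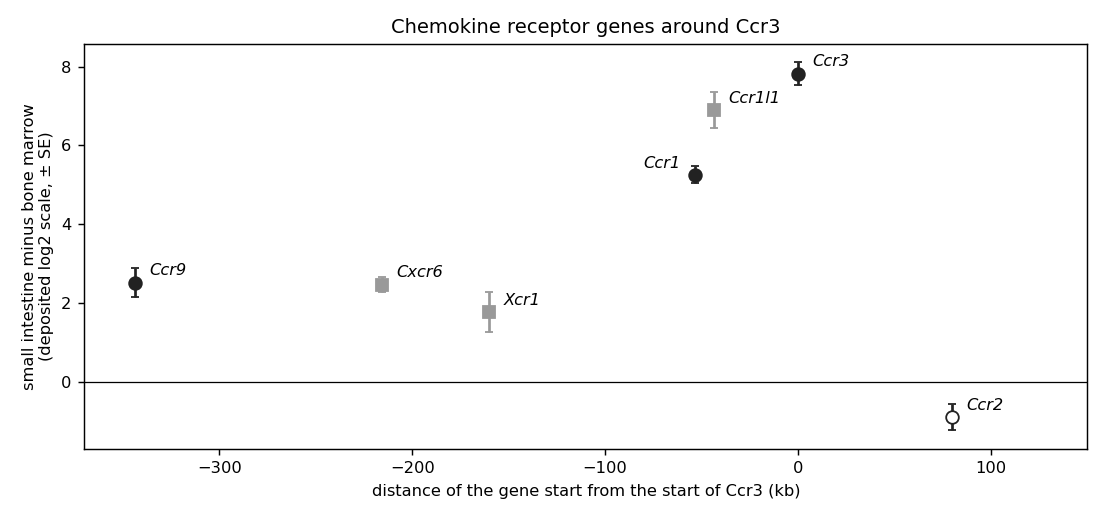
Difference of SI minus BM on the deposited log2 scale (± SE, limma) of the 7 listed chemokine receptors around Ccr3 against the distance of their starts from that of Ccr3, in kb. Circles are receptors of the homing group and squares other receptors, and open symbols did not pass. Ccr3, Ccr1l1 and Ccr1 had differences of 5.26 to 7.83, and Ccr2 alone lay below 0, at -0.90.

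Ccrl2, the chemerin-binding receptor, changed almost as much as Ccr3 although it lies on another part of the chromosome. BM_1 had 92.7 normalised reads, BM_3 111, BM_4 95.7 and BM_5 119. SI_10 had 24396, SI_11 27709, SI_6 15876 and SI_7 19092. No value of a tissue came near those of the other. The mean went from 105 ± 12.5 to 21768 ± 5294, or 208-fold higher, and the difference was 7.62 ± 0.23 (limma, Benjamini-Hochberg adjusted p = 3.02e-07). It moved from place 8593 of all genes in BM to place 69 in SI. Within a library there were 1.08 to 2.08 reads of Ccrl2 for each read of Ccr3 in BM and 1.15 to 1.54 in SI, ranges that overlapped.

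Genes most like Ccr3 in both level and pattern were sought. These were the genes with the smallest root mean square distance to it over the deposited log2 values of the 8 libraries. They were Adam8, a membrane protease, at 0.34, Ccl6, a chemokine, at 0.48, Fos, an AP-1 subunit, at 0.53, Slc7a11, the cystine transporter, at 0.55, and Ccrl2 at 0.57. Among the receptors, the nearest to Ccr3 was Ccrl2 and the nearest to Ccrl2 was Ccr3. Ccr1 was nearest to Ccr3 at 1.89, Ccr9 and Cx3cr1 were nearest to each other at 1.18, and Cxcr2 and Cxcr4 to each other at 2.40. Ccr2 stood 1.87 and Ccr7 2.61 from its nearest receptor, in both cases Cx3cr1.

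Cxcr4, the receptor of Cxcl12, was the most abundant of the group in BM by reads per kb and was higher still in SI. It had 1643 normalised reads in BM_1, 1627 in BM_3, 1680.3 in BM_4 and 1419 in BM_5. SI_10 had 6543, SI_11 7172, SI_6 4020.2 and SI_7 4601, each above every BM library and spread more widely. The mean rose 3.51-fold, from 1592 ± 118 to 5584 ± 1511, with a difference of 1.77 ± 0.24 (limma, Benjamini-Hochberg adjusted p = 0.000538). The call was lost when each library was centred on its median gene (0.87, limma, Benjamini-Hochberg adjusted p = 0.134), a scaling that lowered the median difference of all genes from 0.37 to -0.53.

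Cxcr2, the receptor of the neutrophil-attracting chemokines such as Cxcl1 and Cxcl2, had values that overlapped between the tissues. BM_1 had 654 normalised reads, BM_3 824, BM_4 801 and BM_5 684, and SI_10 had 641, SI_11 751, SI_6 444 and SI_7 559. The value of SI_11 lay within the range of BM and the other SI libraries below it. The means were 741 ± 84.2 and 599 ± 130, and the difference of -0.32 ± 0.22 did not pass (limma, Benjamini-Hochberg adjusted p = 0.301). When each library was centred on its median gene, Cxcr2 was called lower in SI (-1.22, limma, Benjamini-Hochberg adjusted p = 0.0288). Cxcr2 is also expressed by neutrophils. Of 9 mature neutrophil markers, Cxcr2 among them, 3 were higher in SI, 4 were lower and 2 were not called. Their sum, led by S100a9 and S100a8, was 116421 to 216071 in BM and 45477 to 64985 in SI, but most of the SI sum was Retnlg, which went from 421 ± 249 to 45675 ± 7373. Their part in the value of Cxcr2 was not tested.

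Cx3cr1, the fractalkine receptor of monocytes and macrophages, was low in both tissues. There were 7.66 normalised reads in BM_1, 26.1 in BM_3, 30.6 in BM_4 and 21.4 in BM_5, against 32.8 in SI_10, 54.5 in SI_11, 76.4 in SI_6 and 61.0 in SI_7. SI_10 stood only just above BM_4. The mean rose from 21.4 ± 9.93 to 56.2 ± 18.1, with a difference of 1.32 ± 0.40 (limma, Benjamini-Hochberg adjusted p = 0.0331). Leaving out any of BM_1, BM_3, BM_5, SI_6, SI_7 or SI_11 ended the call, with a Benjamini-Hochberg adjusted p of up to 0.0936 in limma. So did median centring (0.42, limma, Benjamini-Hochberg adjusted p = 0.497) and quantile normalisation (0.59, adjusted p = 0.257). Among SI libraries the order from SI_10 over SI_11 and SI_7 to SI_6 was also that of the summed epithelial, dendritic cell and B and plasma cell markers, the last led by Igkc and Jchain and between 2210 and 18062 normalised reads. It was not that of the macrophage markers, highest in SI_11, or of the monocyte markers, in which SI_7 stood below SI_11. The part of these cells in the value of Cx3cr1 was not tested.

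Ccr7, which leads dendritic cells and lymphocytes to lymph nodes, was near the limit of detection. BM_1 had 2.30 normalised reads, BM_3 0, BM_4 14.4 and BM_5 0.930, and SI_10 had 3.28, SI_11 2.37, SI_6 12.0 and SI_7 8.32. The groups overlapped. A count of 0 allows up to 3 reads in BM_3, or 1.96 normalised reads, by counting error alone. The difference of 0.81 ± 0.67 did not pass (limma, Benjamini-Hochberg adjusted p = 0.405), and its sign turned under median centring and quantile normalisation of the libraries.

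Libraries differed among themselves in the same way for several receptors. SI_6 was the lowest SI library for 6 of the 9 receptors, namely Ccr3, Ccrl2, Ccr1, Ccr9, Cxcr4 and Cxcr2, and the highest for Cx3cr1 and Ccr7. SI_11 was the highest for 5. SI_6 also had the highest epithelial and dendritic cell marker sums, and the part of these in its receptor values was not tested. In BM, no library was lowest for more than 4 receptors or highest for more than 3. Without BM_5 and SI_6 together, a choice made after seeing the data, Ccr3, Ccrl2, Ccr1, Ccr9 and Cxcr4 kept their call and Cx3cr1 lost it.

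Levels of different receptors were compared as mean normalised reads per kb of exon. In BM the order began with Cxcr4 at 881 ± 65.2 (SD, n = 4) and Cxcr2 at 243 ± 27.6, followed by Ccrl2 at 40.2 ± 4.80, Ccr1 at 23.5 ± 5.27, Ccr3 at 21.7 ± 7.86 and Ccr2 at 17.96 ± 3.96. Cx3cr1 at 4.76 ± 2.20, Ccr9 at 2.28 ± 1.64 and Ccr7 at 2.22 ± 3.39 came last. The ranges of Ccr1 and Ccr3, of Ccr3 and Ccr2, of Cx3cr1 and Ccr9, and of Ccr9 and Ccr7 overlapped, so these neighbours in the order did not differ beyond their spread. In SI the order began with Ccrl2 at 8379 ± 2038 and Ccr3 at 4997 ± 802, followed by Cxcr4 at 3089 ± 836, Ccr1 at 932 ± 58.6 and Cxcr2 at 196 ± 42.6, with no overlap between neighbours among these. Ccr9 at 13.05 ± 1.05, Cx3cr1 at 12.5 ± 4.01, Ccr2 at 9.71 ± 3.35 and Ccr7 at 3.28 ± 2.28 came last, each overlapping the next. Ccr9 has a long exon model of 10260 bases in the annotation, which lowers its value on this scale.

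The make-up of receptor reads within a library does not depend on scaling between libraries. The 9 receptors and 17 other chemokine receptors, 26 in all, took 0.0203 to 0.0236% of all reads in BM and 0.239 to 0.346% in SI. Reads of the 9 made up 93.8 to 95.0% of these in BM and 97.6 to 97.9% in SI. In BM, Cxcr4 held 54.6 ± 2.91% and Cxcr2 25.4 ± 1.76% of the listed receptor reads, whereas in SI these were 11.5 ± 1.14% and 1.24 ± 0.0297%. Ccrl2 took 3.60 ± 0.516% in BM and 44.8 ± 2.59% in SI, and Ccr3 2.43 ± 0.855% and 34.1 ± 2.77%. Ccr1 went from 2.29 ± 0.539% to 5.59 ± 0.838%. The shares of Ccr2 (4.19 ± 1.03% and 0.145 ± 0.0629%), Ccr9 (0.821 ± 0.629% and 0.285 ± 0.0513%) and Cx3cr1 (0.729 ± 0.321% and 0.124 ± 0.0617%) were lower in SI. In an exact two-sided permutation test over the 70 assignments of the libraries, 8 of these 9 shares had p = 0.029, the smallest p that 4 against 4 libraries can give, and that of Ccr7 had an exact p = 0.229, all without adjustment for the 9 shares compared. These 9 shares sum to nearly the whole, so a larger share of Ccr3 and Ccrl2 lowers the others. As a share of all reads, Cxcr4 was higher in SI, at 0.0348 ± 0.00875% against 0.0120 ± 0.000814%. Within a library there were 15.9 to 36.6 reads of Cxcr4 for each read of Ccr3 in BM and 0.277 to 0.413 in SI. For each read of Cxcr2 there were 1.98 to 2.51 reads of Cxcr4 in BM and 8.23 to 10.2 in SI.

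**Figure D3:**
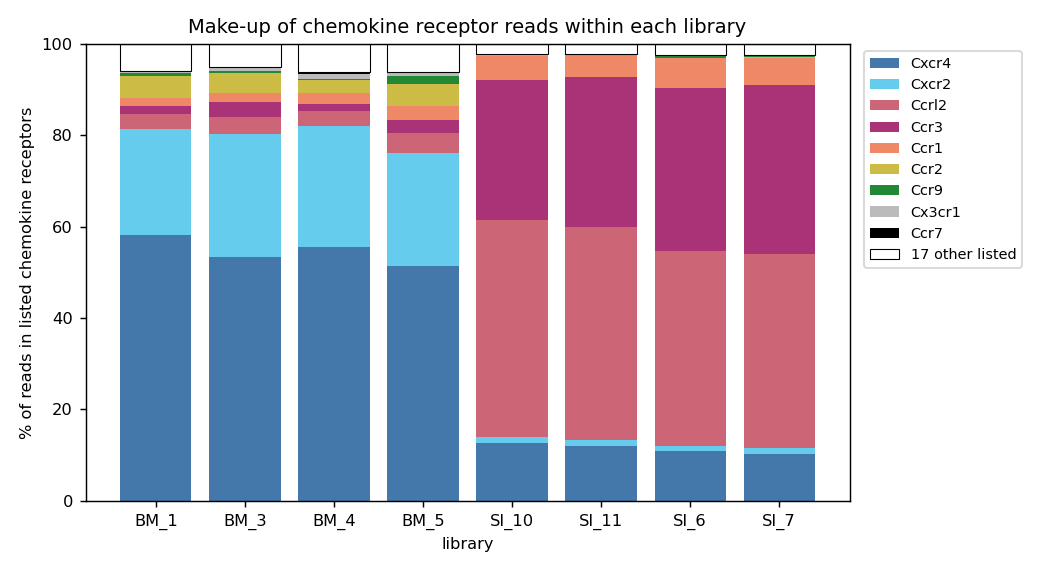
Percent of the reads in 26 listed chemokine receptors taken by each of the 9 receptors and, in white, by the 17 others together, as a stacked bar from 0 to 100% for each library. Cxcr4 and Cxcr2 filled most of each BM bar (mean shares 54.6 and 25.4%), and Ccrl2 and Ccr3 most of each SI bar (44.8 and 34.1%).

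The 17 other chemokine receptors were measured as the rest of the family. Of these, 9 were higher in SI, 0 were lower and 8 were not called, with a median difference of 1.28. Only 5 had a mean of at least 10 normalised reads. Over all genes 22.0% were higher and 12.9% lower, and among genes under that mean 12.3% and 1.59%. The largest of the called differences after Ccr1l1 were those of Cmklr1, the signalling receptor of chemerin, at 4.25 ± 0.45 (limma, Benjamini-Hochberg adjusted p = 0.000156), and of Gpr182, an atypical receptor, at 2.81 ± 0.37. Cmklr1 had 6.21 ± 6.21 normalised reads in BM and 152 ± 35.8 in SI. The scavenging receptors Ackr3 and Ackr1 rose by 2.75 and 2.32 and Cxcr6 by 2.47. Ccr6, Xcr1 and Cxcr5, known from lymphocytes and dendritic cells, rose by 1.86, 1.77 and 1.15 from means of at most 4.11 normalised reads in BM. Ackr4, which scavenges Ccl25, had 84.9 ± 18.04 and 83.8 ± 15.4 normalised reads, a difference of -0.01 ± 0.22.

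**Figure D4:**
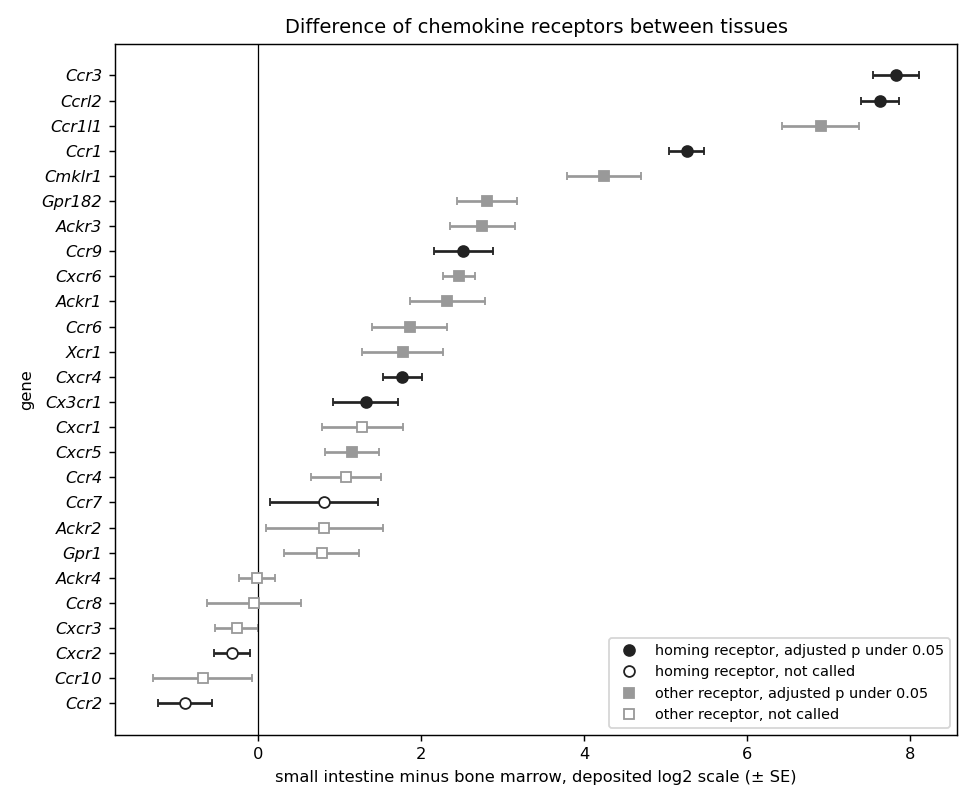
Difference of SI minus BM on the deposited log2 scale (± SE, limma, n = 4 libraries in each tissue) of the 9 homing receptors (black circles) and 17 other chemokine receptors (grey squares), ordered by size. Filled symbols had a Benjamini-Hochberg adjusted p under 0.05, and the differences ran from -0.90 for Ccr2 to 7.83 for Ccr3.

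Ligands of the receptors were measured in the same libraries. Of 25 listed ligands 24 were in the table, of which 14 were higher in SI, 0 lower and 10 not called. Their median difference was 2.22, and 13 had a mean of at least 10 normalised reads. Over all genes 22.0% were higher and 12.9% lower, and at that mean 35.3% and 28.1%. Cxcl2 and Cxcl3, ligands of Cxcr2, had the largest differences, at 10.94 ± 0.21 and 10.33 ± 0.25 (limma, Benjamini-Hochberg adjusted p = 1.01e-07 and 1.54e-07). Cxcl2 had 24.8 to 37.3 normalised reads in BM libraries and 57789 to 77684 in SI libraries. Ccl3 and Ccl4, inflammatory chemokines, followed at 8.79 ± 0.58 and 8.42 ± 0.50, with Ccl4 at 0 reads in every BM library except BM_5. The eotaxins, Ccl25 and Cxcl12 are given because of their receptors Ccr3, Ccr9 and Cxcr4, a choice made after the values were seen. They are not all of the listed ligands of these receptors. The eotaxins Ccl11 and Ccl24 did not pass and had at most 24.0 normalised reads in any library. Ccl25 rose by 1.86 ± 0.58 (limma, Benjamini-Hochberg adjusted p = 0.0366), with 1502 normalised reads in SI_6 and 218 to 552 in the other SI libraries. SI_6 was also the library with the most epithelial marker reads, whose part in the value of Ccl25 was not tested. Cxcl12 had 13.5 ± 5.37 normalised reads in BM and 29.2 ± 17.3 in SI and did not pass (limma, Benjamini-Hochberg adjusted p = 0.110).

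Signal transduction genes below the receptors went in both directions. Of 34 listed genes, 16 were higher in SI, 8 were lower and 10 were not called, with a median difference of 0.53, and all 34 had a mean of at least 10 normalised reads, a level at which 35.3% of all genes rose and 28.1% fell. The largest rises were those of Grk5, a kinase that desensitises receptors, at 4.33 ± 0.24, Ptk2b, a kinase of adhesion signalling, at 3.62 ± 0.20, the G protein subunit gene Gng2 at 3.35 ± 0.22 and Prex1, an activator of Rac, at 3.15 ± 0.21. The largest falls were those of Vav1, also an activator of Rac, at -2.09 ± 0.17, Rasgrp2, which switches on integrins through Rap1, at -1.41 ± 0.19, Grk3, another receptor kinase, at -1.34 ± 0.18, and the GTPase gene Rac2 at -1.16 ± 0.20. All of these passed in limma, with a largest Benjamini-Hochberg adjusted p = 0.00182. Grk5 went from 30.4 ± 9.004 to 668 ± 78.8 normalised reads and Grk3 from 915 ± 122 to 359 ± 28.3, so the related kinases moved in opposite directions. Prex1 went from 361 ± 64.3 to 3223 ± 446 and Vav1 from 1885 ± 72.9 to 439.9 ± 37.8. When each library was centred on its median gene, 10 of the 34 were called higher and 12 lower.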

How the data were processed

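RNA sequencing of FACS-sorted eosinophils was used, with 4 bone marrow and 4 small intestinal libraries of wildtype mice. Per the methods and the labels, cDNA was amplified before library preparation, and sequencing was single-end. The authors aligned reads to GRCm38 with Ensembl release 86 using nf-core/rnaseq, counted them per gene, and transformed the counts with DESeq2 (R 4.0.3). The deposited values are therefore on a log2 scale after variance stabilisation, which compresses differences where counts are low. For the strand setting, the aligner and the rule on multi-mapping reads, the entry is "not given in the sources used here". The columns named the tissue but matched no single sample label.

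Whole reads were recovered by inverting the closed form of the transformation (within 0.05 reads for 100% of the values of each library), with size factors of 0.721 to 1.53. Depth was 11508002 to 21289164 assigned reads, and 22084 genes had a mean under 10 normalised reads, where precision is lowest. Counting limits cover counting error only. Because the deposited unit is log2, limma 3.58.1 in R 4.3.3 (constant prior, no covariate, no filter) took the place of the authors' count model, with Benjamini-Hochberg adjustment over all 38392 genes and a threshold of 0.05. Shares of reads were compared with exact two-sided permutation tests that enumerated every assignment of the libraries (numpy 2.4.6). The fit was tested on simulated data with 200 changed genes, a setting that does not test the scaling between libraries. Coordinates, exon lengths and overlaps came from GENCODE M21 on the same build, in which 38392 identifiers were found, 38000 with the same symbol, and promoter windows from RefSeq. The libraries were counted as replicates because the labels list separate samples and the study gives 4 mice per tissue.

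All 9 receptors are named. Of the other lists, the 4 called genes with the largest rise and the 4 with the largest fall are named, with every called member of the other receptors, the 2 marker genes with the highest mean in a printed list and the 5 genes nearest to Ccr3. A single gene of the other receptors is not reported here and was left out of that list and of the shares. The receptors, lists and tests were chosen with earlier results of these data known. Alternatives were other scalings, a trended prior, pseudocounts of 1 and 5, limma voom, a filter at a mean of 10 normalised reads and leaving out libraries.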

Additional observations from a re-analysis of the deposited data

Results flagged for a closer look

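Of 78 groups of 4 libraries examined for a library that stands apart, 4 did so, where 3.9 would be expected by chance at the 5% level. The measure is the gap of the extreme library to its nearest neighbour divided by the range of the group on the scale examined, and a group was listed where it passed the critical value of Dixon at 4 samples. For Ccr2, BM_4 was lowest among bone marrow libraries (0.932) and SI_11 lowest among small intestinal libraries (0.901). For Cxcl3, BM_3 was lowest among bone marrow libraries (0.851). For Ccl4, BM_5 was highest (1.0), since the other BM libraries had no reads of it.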

How the results depend on the processing

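No paired analysis was possible because the columns of the tissues share no replicate number. Ccr1, Ccr3, Ccr9 and Ccrl2 were called higher in all 17 other settings. Centring each library on its median gene shifted the median difference of all genes by -0.90 and turned the share of calls that were higher from 63.2% to 29.5%, with 4285 genes called higher and 10216 lower (quantile normalisation, 45.8% higher). Under median centring, Cxcr4 (0.87) was no longer called, Cxcr2 (-1.22) was called lower, 2 receptors, 2 other receptors and 2 ligands were called lower, and 10 signal transduction genes were called higher and 12 lower. Ccr2 was called lower under median centring (-1.80), quantile normalisation (-1.15), a trended prior (-0.90), a pseudocount of 5 (-0.88), limma voom (-0.95) and a filter at a mean of 10 normalised reads (-0.90), so that under each of the last 5 settings 1 receptor was called lower. Ccr7 turned to -0.0898 under median centring and -0.0348 under quantile normalisation, and the filter left it out. Cx3cr1 was not called under median centring (0.42), quantile normalisation (0.59) or without BM_5 and SI_6 (1.199), and ran from 0.97 to 1.54 with single libraries left out, when the call was lost in 6 of 8 cases. Of the other receptors, 5 were called higher and 1 lower under quantile normalisation, and 4 higher under the filter, which tested fewer genes. With a trended prior, with limma voom and with the filter, 1 ligand was called lower. Leaving out single libraries gave 0 to 1 ligands called lower, the 1 arising without SI_11, 5 to 6 receptors called higher, 6701 to 9596 genes higher and 4281 to 5166 lower. As shares of all reads in place of shares of listed receptor reads, log2 ratios were 7.59 in place of 3.81 for Ccr3, 7.43 in place of 3.64 for Ccrl2, -0.58 in place of -4.36 for Cxcr2, and 1.54 in place of -2.25 for Cxcr4, which reversed because the denominator changed. The cause of the other changes was not tested. The settings without BM_5 and SI_6 and with libraries centred on genes with a mean of at least 10 normalised reads were chosen after seeing the data. Depth limits Ccr7, with 0 to 15 reads per library, and the low-count receptors of the wider family.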
